A study of Homo sapiens with 22 samples.

Results

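The subject is the binding of the estrogen receptor ESR1 around XBP1 and CTSD, a pair of genes known as ESR1 targets in breast cancer cells, here in an endometrial cancer cell line. The windows were fixed by position, on chromosome 22 from 29100000 to 29300000 for XBP1 and on chromosome 11 from 1720000 to 1850000 for CTSD, both in GRCh37 (hg19) coordinates. Every peak overlapping a window was a member. This gave 126 of the 356467 peaks in 20 peak lists, 60 in the XBP1 window and 66 in the CTSD window. Peaks that overlapped by at least 1 base across libraries were merged into sites, which gave 10 sites for XBP1 and 26 for CTSD among 93612 merged regions of the genome. Sites are numbered by position within each window. Being in a window says nothing on which gene a peak acts on. The RefSeq gene order places XBP1 between CHEK2, HSCB and CCDC117 on one side and ZNRF3, C22orf31 and KREMEN1 on the other. It places CTSD between KRTAP5-5, KRTAP5-6 and IFITM10 on one side and SYT8, TNNI2 and LSP1 on the other.

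XBP1 encodes a transcription factor of the unfolded protein response, which raises the capacity of the endoplasmic reticulum to fold and export proteins. CTSD encodes cathepsin D, an aspartic protease of the lysosome and a classic estrogen-induced gene of breast cancer cells. ESR1 is a nuclear receptor that binds DNA when it holds estradiol, mostly at enhancers away from gene starts. D538G is a substitution in its ligand-binding domain that is known to give the receptor activity without hormone.

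Ishikawa cells are an endometrial adenocarcinoma line. All groups were clonal derivatives that carried a FLAG tag on ESR1, and binding was measured by chromatin immunoprecipitation sequencing (ChIP-seq) with an antibody to FLAG. There were 2 clones with wild-type ESR1 and 3 with D538G, and 2 replicates of each clone under each treatment. All cells had spent at least 5 days in medium without hormones and were then given 10 nM estradiol (E2) or 0.1% DMSO, the vehicle, for 1 h. The 4 groups were wild type with DMSO (4 libraries), wild type with E2 (4), D538G with DMSO (6) and D538G with E2 (6). A difference between genotypes is therefore a difference between few clones, and replicates of a clone share its history. Peak lists hold no RNA, so the cell type could not be checked by its markers, and whether XBP1 or CTSD was expressed was not measured here.

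Libraries stood far apart in how many peaks they held. List length ran from 45 to 29118 peaks in wild type with DMSO (median 565.5), from 5757 to 35344 in wild type with E2 (median 19657), from 1619 to 54903 in D538G with DMSO (median 11406.5) and from 1977 to 49223 in D538G with E2 (median 16199). In wild type with DMSO, 2 lists held 45 and 51 peaks, so absence of a site from them carries little information. The lowest −log10 p in any list was 10.0458, and the cut-off used for each list is not given. A site without a peak had none that was called, which differs from having no binding. In the library labelled D538G E2 clone 2 replicate 1, the names of the peaks held Ctl, which was read here as the other treatment. Its label was kept, and values without it, or without both replicate 1 libraries of that clone, are given beside the main ones.

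The 250 bases before each gene's start were searched for estrogen response element motifs, and no other sequence of these genes was read. RefSeq (GRCh38.p14) listed 2 starts for XBP1 and 1 for CTSD, all on the minus strand. The 250 bases before the first XBP1 start (chr22:28800570-28800819) and before the CTSD start (chr11:1763928-1764177) are written 5′ to 3′ along the gene. Capitals mark each copy of the half-site of the estrogen response element, GGTCA on either strand.
XBP1: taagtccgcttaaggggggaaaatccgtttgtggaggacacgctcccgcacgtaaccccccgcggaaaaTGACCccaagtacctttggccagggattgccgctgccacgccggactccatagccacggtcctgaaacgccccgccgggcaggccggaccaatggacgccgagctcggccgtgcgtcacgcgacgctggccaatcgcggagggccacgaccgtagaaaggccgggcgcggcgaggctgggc
CTSD: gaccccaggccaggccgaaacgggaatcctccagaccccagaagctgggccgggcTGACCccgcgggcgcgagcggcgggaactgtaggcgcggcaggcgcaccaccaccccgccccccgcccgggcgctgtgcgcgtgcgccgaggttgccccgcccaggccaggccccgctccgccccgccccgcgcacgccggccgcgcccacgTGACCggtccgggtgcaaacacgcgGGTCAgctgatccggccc
The half-site GGTCA occurred once in the XBP1 sequence and at 3 places in the CTSD sequence. It was held by 32.6% of the 35116 RefSeq promoter sequences of that length. The complete palindrome GGTCANNNTGACC, which contains the half-site on both strands, occurred 0 times in both and in 0.0399% of all promoters. The SP1 box GGGCGG, the site of a factor known to act with ESR1 at promoters, occurred 0 times in the XBP1 sequence shown and at 5 places in that of CTSD, of which 2 share 1 base. It was present in 42.6% of promoters. The 250 bases before the second XBP1 start, not shown, held 3 SP1 boxes, 1 GGTCA half-site and 0 complete palindromes. These coordinates are of another build than the peak lists, so whether a peak covered these sequences was not determined.

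Both windows held ESR1 peaks in endometrial cells. At least 1 peak lay in the XBP1 window in 16 of 20 libraries and in the CTSD window in 15 of 20. Stretches of equal length before and after held a peak in 14 and 18 libraries for XBP1, and in 12 and 11 for CTSD. The XBP1 count thus lay between those of its flanks. The lists without any XBP1 peak held 45, 51, 1080 and 1619 peaks, and those without any CTSD peak were these 4 and the list of 1977. Every list above 1977 peaks held a peak in both windows. Of the 93612 regions of the genome, 27.9% had peaks in at least 5 libraries, and 41003 regions had a peak in 1 library alone. The XBP1 window held several recurrent sites. Of its 10 sites, 6 were found in at least 5 libraries, with 48 of the 60 peaks at these. The CTSD window had 3 such sites of 26, with 32 of the 66 peaks, and 16 sites had a peak in 1 library alone. Of these 16, 11 came from the D538G DMSO clone 2 replicate 2 list, the longest of all, 4 from the D538G DMSO clone 1 replicate 2 list and 1 from the D538G E2 clone 3 replicate 1 list. The map of libraries per site shows a single tall CTSD site against a row of XBP1 sites of similar height.

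**Figure D1:**
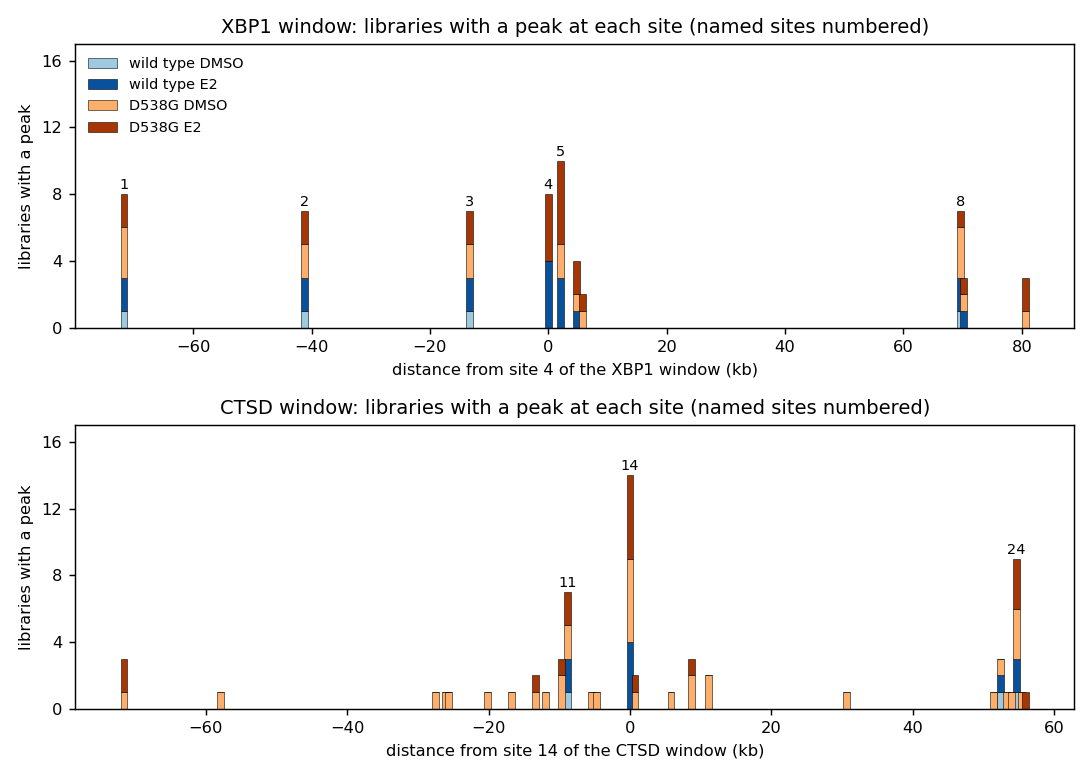
Number of libraries with a peak at each merged site (y axis), by distance in kb from site 4 of the XBP1 window (upper panel) and from site 14 of the CTSD window (lower panel), with stacked colours for the 4 groups. XBP1 site 4 is made of E2 libraries of both genotypes only, and CTSD site 14 reaches 14 of 20 libraries, with none from wild type with DMSO.

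The site at CTSD most often bound was site 14 (chromosome 11, 1793569 to 1794364). It had a peak in 4 of 4 wild-type libraries with E2, in 0 of 4 with DMSO, in 5 of 6 D538G libraries with DMSO and in 5 of 6 with E2. Without the library of doubtful label the last count was 4 of 5. In D538G it was missing only from the shortest list of each treatment, with 1619 and 1977 peaks. In wild type with DMSO it was missing also from the list of 29118 peaks. The group pattern was the same in each replicate number for wild type: 2 of 2 E2 and 0 of 2 DMSO libraries. In D538G the site was found in 3 of 3 libraries of replicate 1 and 2 of 3 of replicate 2 under both treatments. Only 2.52% of the 93612 regions were bound in 14 libraries or more.

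Peak height at CTSD site 14 is given as the authors' signal value, whose reference is not stated, so heights were read only within a list. In wild type with E2 the signal was 16.8 and 46.9 in the replicates of clone 1 and 13.4 and 22.7 in those of clone 2. These peaks were higher than 44.95 to 84.1% of the peaks of their own lists (median 60.7%). In D538G with DMSO the signal was 37.9 and 157 in clone 1, 16.6 and 24.1 in clone 2 and 24.5 in clone 3 replicate 1. They exceeded 72.9 to 99.9% of their own lists (median 95.4%), and in clone 1 replicate 2 the peak ranked 48 of 50382. In D538G with E2 the signal was 52.4 and 41.7 in clone 1, 33.5 in clone 2 replicate 1, and 59.3 and 45.5 in clone 3, above 87.6 to 95.6% of their lists (median 92.9%). Ranks from lists of different length cannot be compared between groups, so they were not tested. Site 14 was the strongest CTSD site in 13 of the 15 libraries with any, and site 11 in the other 2.

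XBP1 site 4 (chromosome 22, 29209599 to 29210262) had a peak only in libraries labelled E2. With E2 it was bound in 4 of 4 wild-type libraries and in 4 of 6 of the mutant, and with DMSO in 0 of 4 and 0 of 6. The DMSO lists without it included those of 54903, 50382, 29118, 12963 and 9850 peaks, while the shortest E2 list with it held 5757. Among E2 libraries it was missing from D538G clone 2 replicate 2, a list of 1977 peaks, and from D538G clone 3 replicate 2, one of 49223. Without the library of doubtful label, the count was 3 of 5 in D538G with E2. By replicate number, D538G with E2 had it in 3 of 3 libraries of replicate 1 and 1 of 3 of replicate 2. Across the genome, 168 of 93612 regions had peaks in at least 8 of 10 E2 libraries and 0 of 10 DMSO libraries.

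The signal at XBP1 site 4 in wild type with E2 was 23.8 and 29.9 in clone 1 and 10.9 and 26.7 in clone 2. In D538G with E2 it was 34.4 and 18.8 in clone 1, 11.9 in clone 2 replicate 1 and 51.9 in clone 3 replicate 1. The wild-type peaks exceeded 28.02 to 74.6% of the peaks of their lists and the D538G peaks 52.3 to 92.3%, with a median of 71.2% over all 8. Its rank varied between lists, at 10481 of 35344 peaks in the longest wild-type E2 list and 1532 of 19832 in D538G clone 3 replicate 1. All 8 libraries with XBP1 site 4 also had CTSD site 14, and 6 libraries had CTSD site 14 without it.

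XBP1 site 5 (29211668 to 29212081), 1.99 kb from site 4 by median summit, also came mostly from E2 libraries. With E2 it had a peak in 3 of 4 wild-type libraries and in 5 of 6 of the mutant, and with DMSO in 0 of 4 and 2 of 6. The DMSO libraries with it were D538G clone 1 replicate 2, with a signal of 30.7, and clone 2 replicate 1, with 8.45. In E2 libraries the signal ran from 9.43 to 18.7 in wild type (median 11.97, 3 libraries) and from 14.9 to 24.2 in D538G (median 15.6, 5 libraries). It was the only XBP1 site in the list of 1977 peaks, D538G E2 clone 2 replicate 2. Sites 4 and 5 were both bound in 6 libraries, all labelled E2. Site 5 was the strongest XBP1 site in 5 of 16 libraries and site 4 in 4, so no XBP1 site led as CTSD site 14 did.

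Most lists that held the other named sites were long ones. XBP1 sites 2 (29168519 to 29169015) and 3 (29195950 to 29197029) and CTSD site 11 (1784754 to 1785872) had peaks in exactly the 7 longest lists, of 21869 peaks or more, and in none of 19832 or fewer. Those 7 lists included wild type with DMSO clone 1 replicate 2, so each of these sites was bound in 1 of 4, 2 of 4, 2 of 6 and 2 of 6 libraries of the groups in the order given above. The same 7 lists made up the set at 2906 of the 4874 regions of the genome with 7 libraries, or 59.6%. XBP1 site 1 (29137636 to 29138556) came from 8 lists, 7 of them among the 8 longest, in a set shared by 57.6% of regions with 8 libraries. CTSD site 24 (1848111 to 1849098) came from 9 lists, 8 of them among the 9 longest, and XBP1 site 8 (29278846 to 29279768) from 7 lists, 6 of them among the 7 longest. The sets of these 2 were shared by 6.40% of regions with 9 libraries and 0.862% of those with 7. CTSD site 14 came from 14 lists, 13 of them among the 14 longest, in a set shared by 12.4% of regions with 14 libraries. XBP1 site 4 came from 8 lists of which 4 were among the 8 longest, in a set shared by 3.78%. XBP1 site 5 came from 10 lists of which 6 were among the 10 longest, in a set shared by 0.206%. The plot of presence against list length shows XBP1 sites 2 and 3 and CTSD site 11 filled only at its right end. Without the library of doubtful label, D538G with E2 held XBP1 sites 1, 2 and 3 and CTSD site 11 in 1 of 5 libraries each and CTSD site 24 in 2 of 5.

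**Figure D2:**
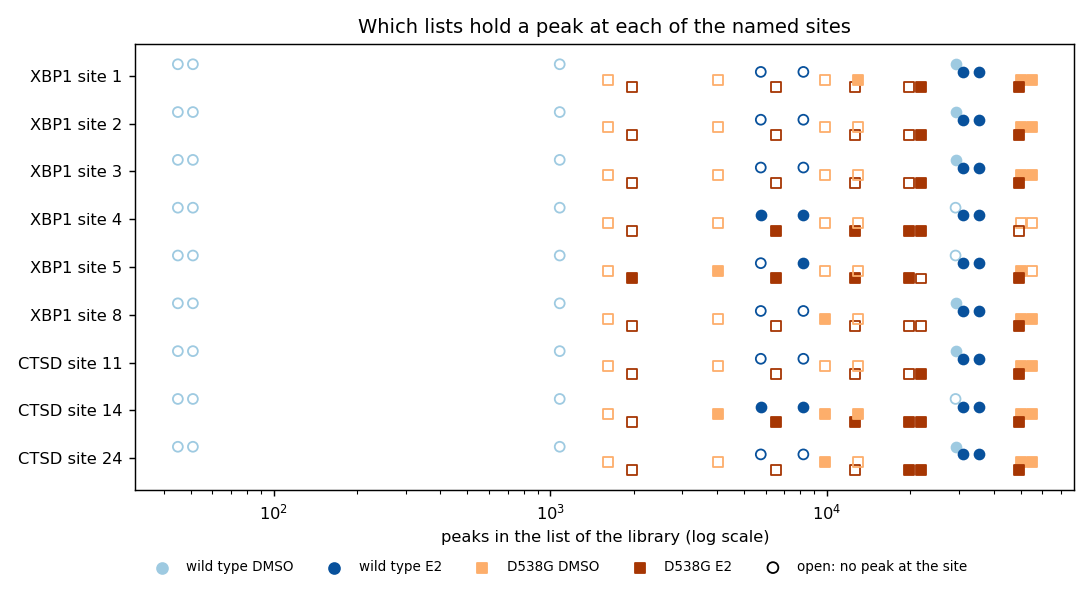
Presence of a peak at each named site in each of the 20 libraries, by the number of peaks in the library's list (x axis, log scale). Filled symbols mark a peak, open symbols none, and colours the 4 groups. XBP1 sites 2 and 3 and CTSD site 11 fill only from 21869 peaks upward, whereas XBP1 site 4 is open in all DMSO lists and CTSD site 14 is filled in D538G lists from 4032 peaks upward.

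Peak height at these 6 sites differed widely between lists. XBP1 site 1 exceeded 20.02 to 68.8% of the peaks in its lists (median 43.8%), with signals of 8.10 to 25.4. XBP1 site 2 exceeded 48.8 to 94.0% (median 57.5%), the highest in wild type DMSO clone 1 replicate 2, where its signal was 26.2. XBP1 site 3 exceeded 35.4 to 87.3% (median 75.5%), the lowest in wild type DMSO clone 1 replicate 2. XBP1 site 8 exceeded 8.50 to 79.7% (median 62.3%) and CTSD site 11 exceeded 19.1 to 83.8% (median 72.4%). CTSD site 24, with a median of 68.1%, ran from 16.6% in D538G DMSO clone 3 replicate 1 (signal 8.63) to 93.9% in D538G DMSO clone 1 replicate 2 (signal 66.6). A further 4 XBP1 sites and 7 CTSD sites had peaks in 2 to 4 libraries. Of these 11 sites, 8 had peaks in D538G libraries only, beside 51.4% of the 26459 regions of the genome with 2 to 4 libraries. D538G has 12 of the 20 libraries and the 3 longest lists. The grid of strength within each list covers the 9 named sites.

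**Figure D3:**
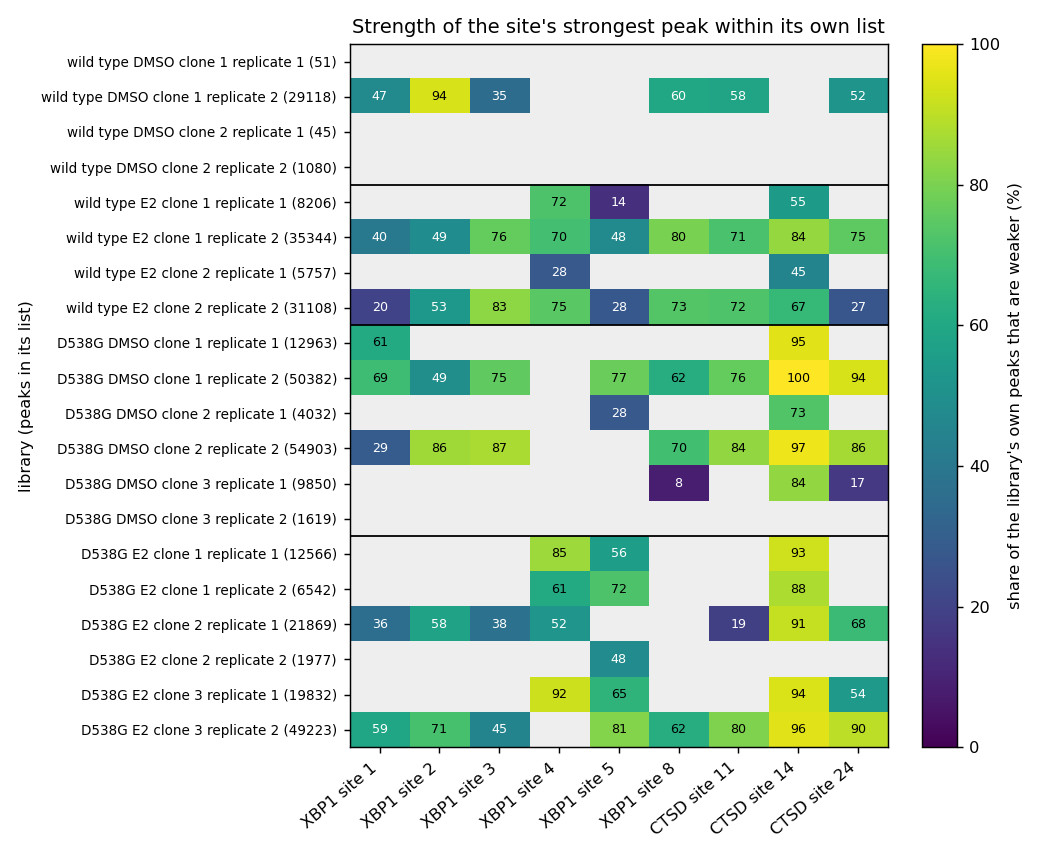
Share of a library's own peaks that are weaker by the authors' signal value than the strongest peak at each named site (colour and printed number, in percent), for the 20 libraries (rows, with list length) and the 9 named sites (columns). Grey cells have no peak. CTSD site 14 lies between 73 and 100 in D538G rows that hold it and between 45 and 84 in wild-type E2 rows.

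The first comparison asked whether E2 changed binding at these loci in wild-type clones. Of the 36 sites, 10 had peaks in at least 2 of the 8 libraries and were tested. XBP1 site 4 and CTSD site 14 had peaks in all 4 E2 and none of the 4 DMSO libraries, each with an unadjusted p of 0.0286 (exact two-sided Fisher's test), the smallest that 4 against 4 allows. Across the genome 9.34% of 29233 tested regions had this pattern, and 2 of 10 member sites is a small count to set beside that share. After Benjamini-Hochberg adjustment over all regions neither passed (Fisher's exact test, adjusted p = 0.306 for both). XBP1 site 5, with 3 of 4 against 0 of 4, had an unadjusted exact p of 0.143. Without the lists of 45 and 51 peaks, sites 4 and 14 had an unadjusted exact p of 0.0667, the smallest possible with 4 against 2. Without lists under 2000 peaks only 1 DMSO library was left, too few for any site to pass.

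Counted over the whole window, XBP1 held 2 and 6 peaks in the clone 1 replicates with E2 and 1 and 8 in those of clone 2. With DMSO it held 0 and 4 in clone 1 and 0 and 0 in clone 2. The groups overlapped, since the DMSO library with 4 peaks exceeded 2 of the E2 libraries. The means were 4.25 ± 3.30 with E2 and 1 ± 2 with DMSO (SD, n = 4 each), a difference of 3.25 that did not pass an exact permutation test (two-sided, p = 0.171, adjusted p = 0.709 over 8 window tests). CTSD held 1 and 4 peaks in clone 1 and 1 and 3 in clone 2 with E2, against 0 and 4 and then 0 and 0 with DMSO. The difference of 1.25 was within the spread between libraries (exact permutation test, p = 0.4, adjusted p = 0.709). Without the lists of 45 and 51 peaks the differences were 2.25 at XBP1 and 0.25 at CTSD. Without lists under 2000 peaks, which left 1 DMSO library, they were 0.25 and −1.75. Within pairs of the same clone and replicate, XBP1 had more peaks with E2 in 4 of 4 pairs and CTSD in 3 of 4, with 1 tie. The DMSO lists of 45, 51 and 1080 peaks held 0 peaks in both windows, so any E2 peak decided those pairs. In the pair with the DMSO list of 29118 peaks, E2 and DMSO held 6 and 4 peaks at XBP1 and 4 and 4 at CTSD.

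In D538G clones the same comparison tested 19 member sites, of which 0 fell under an unadjusted p of 0.05 by Fisher's exact test, beside 0.02% of 44920 regions, and 0 passed adjustment. XBP1 site 4, with 4 of 6 against 0 of 6, came closest (unadjusted exact p = 0.0606, adjusted p = 1). It reached an unadjusted p under 0.05 when D538G E2 clone 2 replicate 2 or clone 3 replicate 2, the E2 libraries lacking it, was left out. Leaving out an E2 library that lacks the site can only raise the E2 share, so no conclusion is drawn from this. The clone 3 replicate 2 list held 49223 peaks. XBP1 site 5, with 5 of 6 against 2 of 6, had an unadjusted exact p of 0.242. It passed 0.05 unadjusted, with 5 of 5 against 1 of 5, when both replicate 1 libraries of D538G clone 2 were left out. Only the E2 library of that pair has a doubtful label, and the DMSO library is 1 of the 2 DMSO libraries with site 5. Without the library of doubtful label alone, the counts were 5 of 5 with E2 against 2 of 6 with DMSO. CTSD site 14 had a peak in equal numbers of E2 and DMSO libraries.

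The XBP1 window held 3 and 2 peaks in clone 1, 4 and 1 in clone 2 and 5 and 8 in clone 3 with E2, and 1 and 9, 1 and 4, and 1 and 0 with DMSO. Ranges overlapped, with means of 3.83 ± 2.48 and 2.67 ± 3.39 (SD, n = 6 each) and a difference of 1.17 (exact permutation test, p = 0.565, adjusted p = 0.753). The CTSD window held 1 and 1, 3 and 0, and 4 and 8 peaks with E2, and 1 and 13, 1 and 19, and 2 and 0 with DMSO. Most of the DMSO peaks lay in the lists of 50382 and 54903 peaks, and the mean was 6 ± 8 against 2.83 ± 2.93 with E2. The difference of −3.17 was within the spread (exact permutation test, p = 0.442, adjusted p = 0.709), and without D538G DMSO clone 2 replicate 2 it was −0.567. Without the library of doubtful label the differences were 1.13 at XBP1 and −3.2 at CTSD, and without both replicate 1 libraries of clone 2 they were 0.8 and −4.2.

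The second question was whether the mutant receptor bound these loci without added estrogen. Under DMSO, 1 of 12 member sites tested differed at an unadjusted p of 0.05 by Fisher's exact test, beside 3.57% of 32172 regions, and 0 passed adjustment. It was CTSD site 14, with 5 of 6 D538G against 0 of 4 wild-type libraries (unadjusted exact p = 0.0476, adjusted p = 1). The exact p was 0.107 without the lists under 100 peaks. Without those under 2000, 1 wild-type library was left, too few for any site to pass. Of the 2731 regions bound in all wild-type E2 and no wild-type DMSO libraries, as CTSD site 14 and XBP1 site 4 were, 23.7% had peaks in 5 or 6 of 6 D538G DMSO libraries and 27.1% in none. CTSD site 14 was in the first class and XBP1 site 4 in the second. XBP1 site 4 was further among the 166 regions, 6.08%, that also had peaks in at least 4 of 6 D538G E2 libraries.

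By window, D538G exceeded wild type under DMSO by 1.67 peaks at XBP1 (exact permutation test, p = 0.443) and by 5 at CTSD (p = 0.319, adjusted p = 0.709 for both), both within the spread between libraries. Without the lists of 45 and 51 peaks they were 0.667 and 4. Under E2 the difference was −0.417 at XBP1 (exact permutation test, p = 0.905) and 0.583 at CTSD (p = 0.867, adjusted p = 0.905 for both), and −0.45 and 0.55 without the library of doubtful label. Of 13 member sites tested under E2, 0 fell below an unadjusted p of 0.05 by Fisher's exact test, beside 1.21% of 35729 regions, and 0 passed adjustment. XBP1 site 4 gave an unadjusted exact p of 0.467. Whether the effect of E2 differed between genotypes was tested on the window counts: the D538G effect minus the wild-type effect was −2.08 peaks at XBP1 (exact permutation test, p = 0.552) and −4.42 at CTSD (p = 0.438). The comparisons share libraries, so their values are set side by side only.

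Since longer lists hold more peaks anywhere, window counts were also expressed per 1000 peaks of the list. For XBP1 they were 0.211 ± 0.0458 with E2 and 0.0343 ± 0.0687 with DMSO in wild type (SD, n = 4 each; exact permutation test, p = 0.0286, adjusted p = 0.114). In D538G they were 0.275 ± 0.124 with E2 and 0.113 ± 0.0876 with DMSO (SD, n = 6 each; exact permutation test, p = 0.0216, adjusted p = 0.114). In wild type every E2 library lay above every DMSO library on this scale, while the D538G ranges overlapped. The highest D538G E2 value, 0.506, came from 1 peak in the list of 1977 peaks. The lowest D538G DMSO value, 0, came from the list of 1619 peaks. For CTSD the difference was 0.0920 in wild type (exact permutation test, p = 0.114) and −0.0664 in D538G (p = 0.292). D538G minus wild type under DMSO was 0.154 at CTSD (exact permutation test, p = 0.0714) and 0.0787 at XBP1 (p = 0.162). No comparison on this scale passed after adjustment. The exact permutation p of 0.0286 for XBP1 in wild type was the smallest that 4 against 4 allows, so alone it could not pass adjustment. Of the 4 wild-type DMSO values, 2 came from the lists of 45 and 51 peaks. Without these lists the XBP1 difference in wild type was 0.142 (exact permutation test, p = 0.0667, the smallest possible with 4 against 2). Without the library of doubtful label the XBP1 difference in D538G was 0.180 (exact permutation test, p = 0.0173, unadjusted). The plot of window counts shows both scales.

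**Figure D4:**
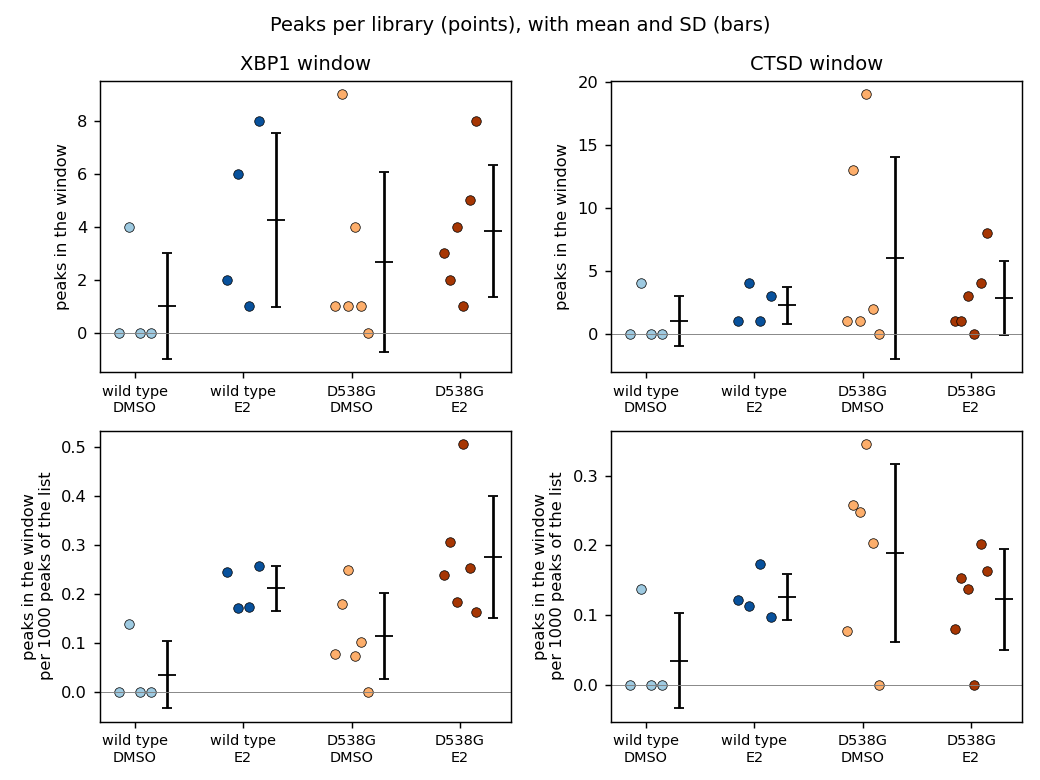
Peaks in the XBP1 (left) and CTSD (right) window of each library, as counts (upper panels) and per 1000 peaks of the list (lower panels). Points are libraries, and bars the mean and SD of the group (n = 4 for wild type, n = 6 for D538G). The highest points are 9 peaks for XBP1 and 19 for CTSD, both in D538G with DMSO, and per 1000 peaks the wild-type E2 points for XBP1 lie above all wild-type DMSO points.

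Among the 9 named sites, summits, the single bases where a peak is highest, spanned the fewest bases at CTSD site 14. Over 14 libraries its summits spanned 65 bp (SD 19.2 bp). They spanned 75 bp at XBP1 site 5 (SD 24.9, 10 libraries), 93 bp at CTSD site 24 (SD 36.9, 9 libraries) and 126 bp at XBP1 site 4 (SD 41.6, 8 libraries). The span was 129 bp at XBP1 site 2, 179 bp at XBP1 site 1, 340 bp at XBP1 site 3, 407 bp at CTSD site 11 and 610 bp at XBP1 site 8. These spans take the strongest peak of each library. The sites of widest span, XBP1 site 8 and CTSD site 11, also had libraries with a second, weaker peak, 1 at XBP1 site 8 and 2 at CTSD site 11.

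Summit positions were compared between genotypes at 9 sites, with both treatments pooled, and between treatments at 7, with both genotypes pooled. Of these, 0 passed adjustment (exact permutation tests, smallest adjusted p = 0.6 and 0.533), nor did any without the library of doubtful label. The smallest unadjusted p was for XBP1 site 5, where D538G summits lay 32.2 bp further along the chromosome (29211901.6 ± 21.1 against 29211869.3 ± 18.9, SD, n = 7 and 3; exact permutation test, p = 0.0667, adjusted p = 0.6). There all 3 wild-type summits came from E2 libraries, while 2 of the 7 D538G summits came from DMSO libraries. At CTSD site 14 the genotypes differed by 9.25 bp (exact permutation test, p = 0.438) and the treatments by −8.62 bp (p = 0.446), each less than the SD between libraries. All 4 wild-type summits there came from E2 libraries and all 5 DMSO summits from D538G. Neither difference therefore separates genotype from treatment. At XBP1 site 4 the genotypes differed by 16.8 bp (exact permutation test, p = 0.543).

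**Figure D5:**
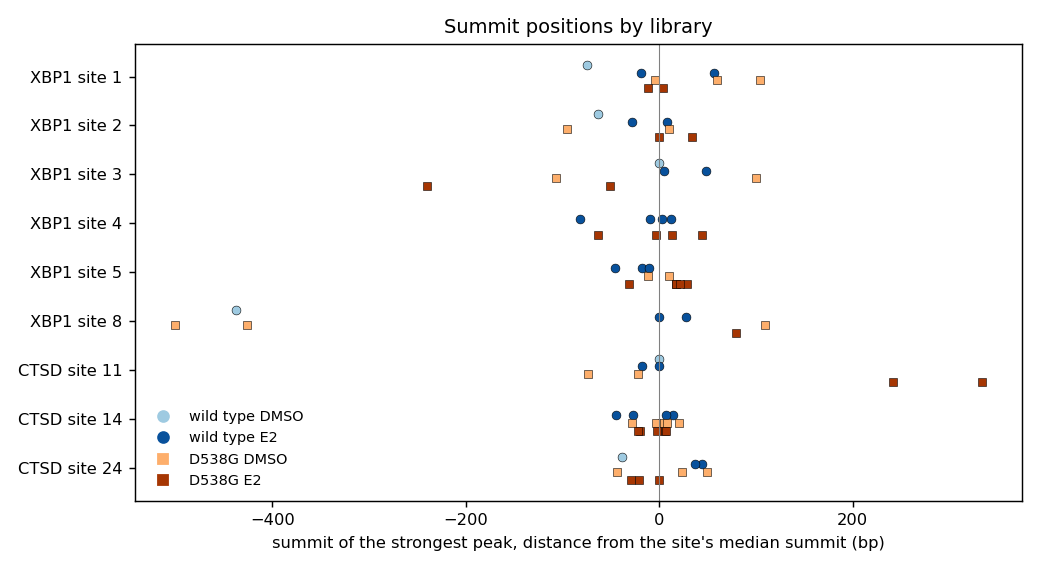
Distance in bp (x axis) of the summit of the strongest peak from the median summit of the site, for the 9 named sites (rows). Each symbol is a library, coloured by group. Summits of CTSD site 14 lie within 65 bp of one another in 14 libraries, whereas those of XBP1 site 8 span 610 bp.

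The surroundings gave the density of sites against which these windows stand. The XBP1 window had 5 sites per 100 kb, against 2 in the 200 kb before it, 6 in the 200 kb after it and 6.93 on chromosome 22 as a whole. For sites in at least 5 libraries it had 3 per 100 kb, against 0.5, 3.5 and 1.62. The CTSD window had 20 sites per 100 kb, against 13.1 in the 130 kb before it, 42.3 in the 130 kb after it and 4.08 on chromosome 11. For sites in at least 5 libraries it had 2.31, against 2.31, 4.62 and 1.08. The CTSD window was thus dense in sites seen in 1 or few libraries, as were its flanks, and much less so in recurrent ones.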

How the data were processed

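ChIP-seq for FLAG-tagged ESR1 was deposited as 1 narrowPeak list per library. Reads were handled with Bowtie, MACS2 and DESeq2 on hg19, per the submitters' processing notes. Parameters, use of the inputs and depth are not given in the sources used here. The signal value and the −log10 p of each peak are the authors' deposited values. The summit offset was deposited too. The signal served only to rank peaks within a list. The 2 input libraries were not analysed here, and 5 mitochondrial peaks were set aside.

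Peaks of all libraries overlapping by 1 base were merged. Presence per region was tested with Fisher's exact test over regions bound in 2 or more of the compared libraries, with Benjamini-Hochberg adjustment over all of them. Window counts and summits were tested with exact permutation tests over libraries. The tests took libraries as units although replicates share a clone. A p-value therefore speaks of libraries of these few clones, and not of clones in general. Sites with peaks in at least 5 libraries were named. Replicates of the same clone and number were paired across treatments because they share a clone per the labels, and this pairing entered as an alternative. Of the other alternatives, the strongest 1000 peaks, a −log10 p above 20, peaks per 1000 and each library left out were planned. The windows, members and lists were chosen with earlier results of these data known. Scripts (Python 3.11.15, pandas 2.3.3, scipy 1.17.1) were tested on simulated data.

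Peak names in 4 lists, those of D538G clones 1 and 2 replicate 1, held the word Input. In the one labelled E2 clone 2 they also held Ctl, which was read here as the vehicle.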

Additional observations from a re-analysis of the deposited data

Results flagged for a closer look

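Among wild-type DMSO libraries, clone 1 replicate 2 stood far from the other 3 in both windows: it held 4 peaks in the XBP1 window and 4 in the CTSD window, while the others held 0. Its list had 29118 peaks against 45, 51 and 1080. These 2 were found among 8 combinations of window and group examined for such a library, and chance alone flags about 1 in 20 such groups. The 2 windows share the same libraries, so they are not separate findings. None of its 8 peaks lay at XBP1 sites 4 or 5 or CTSD site 14.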

How the results depend on the processing

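Of 393 alternatives to 21 results, 359 neither reversed a direction nor changed a call. Among these 359, 6 window differences became 0 with the 1000 strongest peaks: all 4 at XBP1, and the E2 effects at CTSD in both genotypes. Leaving out lists under 100 or 2000 peaks, or libraries of D538G clone 2 replicate 1, was chosen after seeing the data. Per 1000 peaks, the E2 effect at XBP1 passed the unadjusted threshold in wild type (0.177) and D538G (0.162), and D538G minus wild type under E2 changed sign at XBP1 (0.0635) and CTSD (−0.00399). Per 1000 peaks without the D538G E2 clone 2 replicate 1 library, these 3 D538G values were 0.180, 0.0819 and −0.00696. Without lists under 2000 peaks, signs changed for the E2 effect at CTSD in wild type (−1.75) and for D538G minus wild type at XBP1 under DMSO (−0.8) and E2 (0.15).

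With each library left out in turn, D538G minus wild type under E2 ranged from −1.5 to 0.833 at XBP1 and from −0.45 to 1.17 at CTSD. It changed sign at XBP1 without wild type E2 clone 1 replicate 2 (0.167), clone 2 replicate 2 (0.833) or D538G E2 clone 2 replicate 2 (0.15), and at CTSD without D538G E2 clone 3 replicate 2 (−0.45). Under DMSO it ranged from 0.4 to 2.67 and from 2.4 to 6.2. The E2 effect ranged from 2 to 4.33 and from 0.667 to 2.25 in wild type, and from 0.333 to 2.43 and from −4.37 to −0.567 in D538G, in the order XBP1, CTSD.

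The number of member sites with an unadjusted p under 0.05 for E2 in wild type went from 2 to 0 with the 1000 strongest peaks, with the replicate block, and without lists under 100 or 2000 peaks, and was 2 to 3 with single libraries left out. For E2 in D538G it went from 0 to 1 without lists under 2000 peaks or the D538G clone 2 replicate 1 libraries, and was 0 to 1 with single libraries left out. For D538G against wild type under DMSO it went from 1 to 0 with the 1000 strongest peaks and without lists under 100 or 2000 peaks. For E2 in wild type, the replicate block and leaving out these lists kept too few pairs or DMSO libraries for any site to pass. XBP1 site 4 and CTSD site 14 still had a peak in every wild-type E2 library kept and in no wild-type DMSO library kept. For genotype under DMSO, leaving out lists under 2000 peaks kept 1 wild-type library, also too few for any site to pass. The count after adjustment was 0 throughout.

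With the replicate block, the paired E2 tests gave p = 0.125 at XBP1 and 0.25 at CTSD in wild type (exact sign-flip permutation over 4 pairs, smallest p possible 0.125, so they could not pass) and 0.656 and 0.563 in D538G. Genotypes share only a replicate number, and blocking on it gave exact permutation p = 0.34 and 0.22 under DMSO and 0.9 and 0.85 under E2. With clone means as units, permutation p for genotype under DMSO was 0.4 at XBP1 and 0.3 at CTSD, and higher under E2. For the E2 effect, permutation p on clone means was 0.333 and 0.667 in wild type and 0.7 and 0.4 in D538G, in the same order. These tests took clones under E2 and DMSO as unpaired. With 2 or 3 clones a side, no test on clone means could fall under 0.05. In wild type 0.333 was the smallest permutation p possible. Depth is unknown, so a short list and few bound sites cannot be told apart.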
